A study of Mus musculus domesticus and Mus musculus domesticus x Mus musculus castaneus and Mus musculus castaneus with 10 samples.

Results

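Germ layer regulators are transcription factors that start the first lineages of the embryo, and their levels were read in undifferentiated stem cells of CAST, the CAST/EiJ strain of Mus musculus castaneus. The 10 genes were taken by symbol (Gata4, Gata6, Sox17, Foxa2, T, Mixl1, Eomes, Cdx2, Pax6 and Sox1), and each matched 1 of the 26808 Ensembl identifiers of the deposited count table. Counts from RNA-seq of polyadenylated RNA in 2 libraries of CAST pluripotent stem cells were used. The cells were induced pluripotent stem cells, made from CAST/EiJ embryonic fibroblasts with retroviral Oct4, Sox2 and Klf4, grown on irradiated mouse embryonic fibroblasts with serum and LIF, and depleted of feeders before RNA extraction. Whether both libraries came from the same line is not given in the sources used here. Libraries of 129S6/SvEv stem cells (4) and of 129CAS hybrid stem cells (4) were not analysed here. No comparison between genotypes was therefore made, and no p-value is given.

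A pluripotent cell can give rise to all germ layers. In the embryo GATA4, GATA6, SOX17 and FOXA2 act in extraembryonic and definitive endoderm, Brachyury (the product of T), MIXL1 and EOMES act in the primitive streak and its mesoderm and endoderm, CDX2 acts in trophectoderm and later in the posterior embryo, and SOX1 and PAX6 mark the early neural lineage. In stem cell cultures these genes are commonly used as signs of differentiation, and many of their promoters carry activating and repressive histone marks together while the genes are silent or low.

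The total counts were 14460393 in CAST replicate 1 and 13728098 in replicate 2. Each gene's counts were divided by the library total and multiplied by 1000000 (CPM), and a gene with 3 or fewer counts, equal to 0.207 CPM in replicate 1 and 0.219 CPM in replicate 2, was called not detectable at this depth. The labels give the libraries different batch codes, which they do not explain, so that a batch cannot be told apart from the replicate, and nothing in the labels says that the libraries came from separate cultures. Of the 17 genes of the pluripotency list, 15 had a row. Nanog and Dppa5a had none, so their levels were not read. All 15, such as Pou5f1 and Esrrb, were above the floor in both libraries, at means of 67.5 to 818 CPM. Of the 10 genes of the neuron list, 7 were also above the floor in both, among them Stmn2 (1794 and 1611 counts), Tubb3 (1174 and 607), Map2 (111 and 56) and Nefl (106 and 84), while Chat and Syt1 had 0 counts in both.

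Of the 10 regulators, 8 had more than 3 counts in both libraries. The share among all genes of the table was 50.2%. The 10 genes together held 32.3 CPM in replicate 1 and 57.5 CPM in replicate 2, a mean of 44.9 ± 17.8 (SD, n = 2). Eomes and T made up 63.4% of this sum in replicate 1 and 58.8% in replicate 2, shares of counts that are not corrected for gene length. In bulk RNA, fewer cells that express a gene and less RNA per cell cannot be told apart.

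**Figure D1:**
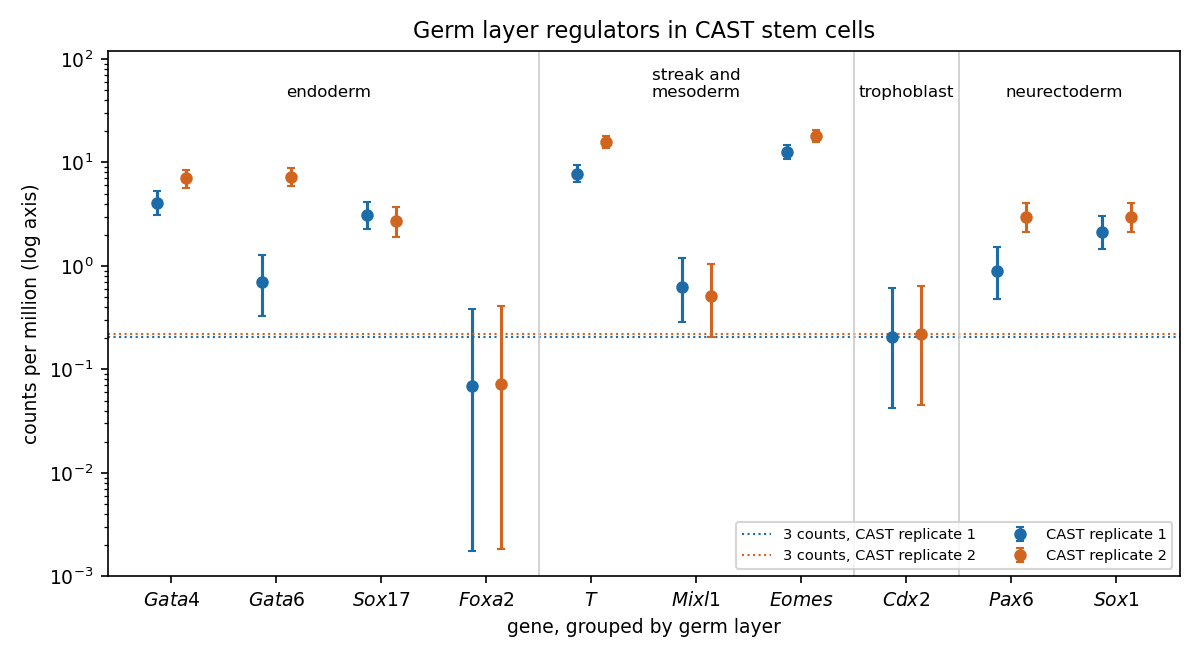
Level of each regulator in CPM (log axis), not corrected for gene length, in CAST replicate 1 (blue) and replicate 2 (orange). Bars are exact 95% Poisson intervals, which cover counting error only, and the dotted lines mark 3 counts. The intervals of Gata4, Gata6, T, Eomes and Pax6 do not overlap between the libraries, Foxa2 and Cdx2 lie at or below the lines, and Gata6 is the gene whose libraries lie farthest apart.

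Positions are on the GRCm38 build. Among the endoderm regulators, Gata4 (chromosome 14, 63198922 to 63271692) had 59 and 96 counts in replicates 1 and 2, or 4.08 and 6.99 CPM. It encodes a zinc finger factor of primitive endoderm and heart. The exact 95% Poisson intervals, which here and throughout cover counting error only, were 3.11 to 5.26 CPM and 5.66 to 8.54 CPM and did not overlap. Gata6 (chromosome 18, 11052064 to 11085635), a paralog that drives the primitive endoderm fate, had 10 and 99 counts. Its level was 0.692 CPM (0.332 to 1.27) in replicate 1 and 7.21 CPM (5.86 to 8.78) in replicate 2, and these intervals were far from overlapping. Sox17 (chromosome 1, 4490931 to 4497354), an HMG-box factor that acts after GATA6 in primitive endoderm and also in definitive endoderm, had 45 and 37 counts, or 3.11 and 2.70 CPM. Its intervals overlapped. Foxa2 (chromosome 2, 148042877 to 148046969), a forkhead factor of definitive endoderm, node and floor plate, had 1 count in each library and was not detectable at this depth. The upper bounds of its intervals were 0.385 and 0.406 CPM.

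Of the streak regulators, Eomes (chromosome 9, 118478212 to 118486132), a T-box factor of trophoblast, streak and definitive endoderm, had 183 and 247 counts, or 12.7 and 18.0 CPM, a mean of 15.3 ± 3.77 (SD, n = 2). T (chromosome 17, 8434423 to 8442496), the T-box gene of streak and notochord, had 113 and 217 counts. Its CPM was 7.81 in replicate 1 and 15.8 in replicate 2, a mean of 11.8 ± 5.65 (SD, n = 2). For Eomes and for T alike, replicate 2 was the higher library and the counting intervals of the libraries did not overlap. Mixl1 (chromosome 1, 180693043 to 180697034), a homeobox gene of the streak, had 9 and 7 counts, or 0.622 and 0.510 CPM, and its intervals overlapped.

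Cdx2 (chromosome 5, 147300805 to 147307270), a caudal-type homeobox gene, had 3 counts in each library and was not detectable at this depth. Its intervals reached 0.606 and 0.639 CPM. Pax6 (chromosome 2, 105668900 to 105697364), a paired box and homeobox gene of eye, forebrain and spinal cord, had 13 and 41 counts. This was 0.899 CPM (0.479 to 1.54) in replicate 1 and 2.99 CPM (2.14 to 4.05) in replicate 2, again with the higher level in replicate 2. Sox1 (chromosome 8, 12395295 to 12400126), an early marker of neural progenitors, had 31 and 41 counts, or 2.14 and 2.99 CPM, with overlapping intervals.

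To compare levels between genes, CPM were divided by the length of the union of a gene's exons in kilobases. On this scale T was highest at 5.10 ± 2.44 CPM per kilobase (SD, n = 2), followed by Eomes at 3.69 ± 0.908, Gata4 at 1.42 ± 0.528, Sox17 at 0.608 ± 0.0618, Gata6 at 0.607 ± 0.708 and Sox1 at 0.531 ± 0.123. Mixl1 had 0.247 ± 0.0347 and Pax6 0.166 ± 0.126. Cdx2 and Foxa2 came last with 0.0942 and 0.0300, both from counts at or under the floor. The libraries overlapped between the neighbours T and Eomes, Sox17 and Gata6, Gata6 and Sox1, Mixl1 and Pax6, and Pax6 and Cdx2. They did not overlap between Eomes and Gata4, Gata4 and Sox17, Sox1 and Mixl1, and Cdx2 and Foxa2. Gata6 in replicate 2 reached 1.11, above the 1.05 of Gata4 in replicate 1. Of the 10 genes, 5 had the same rank in both libraries (T, Eomes, Gata4, Sox1 and Foxa2).

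The median of the 10 regulators was 0.569 CPM per kilobase, beside 5.30 over the 13468 genes above the floor in both libraries and 84.8 over the 15 pluripotency genes. In replicate 1 alone the regulators' median lay between Mixl1 (0.271) and Sox1 (0.444), and in replicate 2 between Sox17 (0.565) and Sox1 (0.618). By the mean of the libraries T lay above 49.1% of the 13468 genes, Eomes above 42.4% and Gata4 above 27.2%. The percentages were 16.3% for Sox17, 14.8% for Sox1 and 7.17% for Mixl1. For Gata6 and Pax6 the place differed between the libraries by more than 1.5 times. Gata6 lay above 2.36% of the genes in replicate 1 and 24.8% in replicate 2, and Pax6 above 1.27% and 8.87%. Even the highest regulator stood well below the core pluripotency factor Pou5f1 (Oct4), whose mean per length was 55.7 times that of T. Counts of Pou5f1, and of Sox2 and Klf4 on the same list, can include transcripts of the reprogramming vectors, which was not tested. The lowest of the pluripotency genes per length, Lin28a, had 16.9 and was above the 10 regulators in both libraries.

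**Figure D2:**
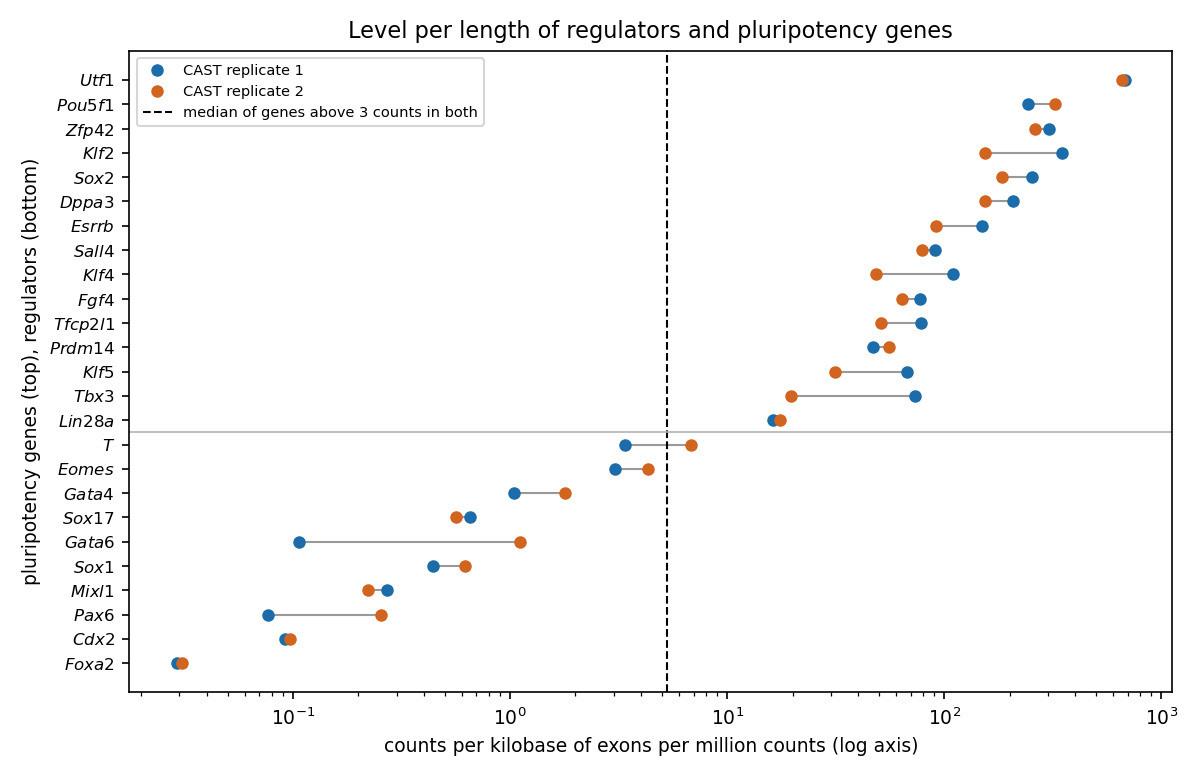
CPM per kilobase of exons (log axis) of the 15 pluripotency genes (top) and the 10 regulators (bottom). Points are the 2 CAST libraries, lines join them, and the dashed line is the median of 13468 genes. Every pluripotency gene lies right of every regulator, and T in replicate 2 is the only regulator value right of the dashed line.

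The libraries were next set against each other. With TMM library sizes (a scaling that centres most genes on a ratio of 1) and 0.5 CPM added, 13824 genes reached a total of 10 counts, and 1259 of them (9.11%) were at least 2-fold apart. Of the regulators, 8 had at least 10 counts in total, and 3 of these were at least 2-fold apart. All 3 (Gata6, Pax6 and T) were higher in replicate 2, a direction in which 4.13% of all genes were 2-fold apart, while 4.98% were in the other. Low genes differ more, and among the 5226 genes with totals in the range of these 8 regulators (16 to 430 counts, a range set after their values were seen) the shares were 16.6% in either direction and 7.54% higher in replicate 2. By any amount, 6 of the 8 were higher in replicate 2, against 49.6% of the 13824 genes. Over all 13824 genes the log2 ratio of replicate 1 to 2 had a median of 0.0047, and 95% of the genes lay between -1.23 and 1.26.

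Gata6 was 10.4-fold higher in replicate 2 by CPM, with an exact 95% interval of 5.44 to 22.4 (counting error only). Its log2 ratio of replicate 1 to replicate 2 was -2.74, and 9 of the 13824 genes, Gata6 included, had a ratio as low or lower. Pax6 was 3.32-fold higher in replicate 2 (1.75 to 6.76), with a log2 ratio of -1.36. With 2 CPM added its log2 ratio was -0.81, under the 2-fold limit. T was 2.02-fold higher (1.60 to 2.56), with a log2 ratio of -1.03 that became -0.97 with library totals in place of TMM, so that T was at the edge of the 2-fold limit. Gata4 was 1.71-fold higher (1.23 to 2.41) and Eomes 1.42-fold higher (1.17 to 1.73), each with an interval above 1. These intervals cover counting error only. With log2 ratios of -0.76 and -0.55, Gata4 and Eomes, like T, lay inside the range that held 95% of all genes. Gata6 and Pax6 lay outside it. That range was taken over genes of all depths. None was computed for genes as low as the regulators, which differ more, so the place of Pax6 among genes of its depth is not known. The intervals held 1 for Sox1 (0.853 to 2.30), Sox17 (0.545 to 1.37) and Mixl1 (0.259 to 2.47), so that no difference was detectable for these genes at this depth. Each ratio has 1 library on either side, and it describes these libraries without a replicate check.

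**Figure D3:**
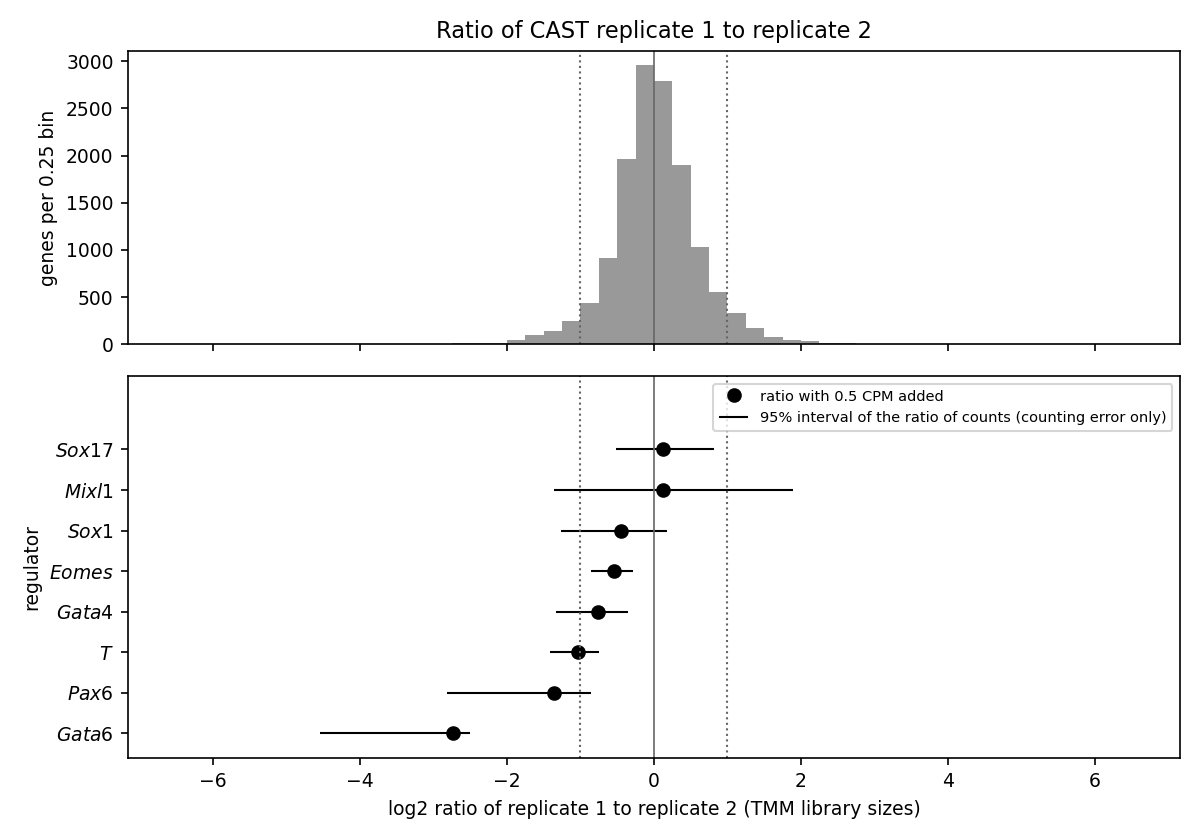
Top, log2 ratio of CAST replicate 1 to replicate 2 (TMM library sizes) over 13824 genes, as genes per bin of 0.25. Bottom, the 8 regulators among them as points with 0.5 CPM added, where lines are exact 95% intervals of the ratio of counts and dotted lines mark 2-fold. Gata6 (-2.74), Pax6 (-1.36) and T (-1.03) lie left of the 2-fold line and none lies right of the other.

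Other genes of each lineage were read from lists. In bulk RNA a level does not show which cells made it. Whether the stem cells themselves express these genes was not tested. In the endoderm list, 15 of 16 genes had a row and 10 were above the floor in both libraries. The highest by CPM were Col4a1 at 191 ± 7.74 CPM (SD, n = 2) and Lamb1 at 137 ± 8.90, which encode basement membrane chains made by primitive endoderm and by other cells. Of the 11 with at least 10 counts in total, 1 was at least 2-fold apart with TMM and 0.5 CPM added (the scale of all counts of genes 2-fold apart), and it was higher in replicate 1. This was Dab2, an endocytic adaptor of primitive endoderm, with 85.8 CPM in replicate 1 and 34.1 CPM in replicate 2. By plain CPM Hnf4a, with 3 and 9 counts, was 3.16-fold higher in replicate 2, with an interval of 0.789 to 18.1. Dab2 lay in the opposite direction to Gata6, and in the same direction as the sum of the fibroblast feeder list given below. Which cells made its RNA was not tested. The median log2 ratio of the 11 genes was -0.14.

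In the streak and mesoderm list, 14 of 16 genes had a row and 10 were above the floor in both. Tdgf1, the Nodal co-receptor, and Nodal, its ligand, were the highest, at 152 ± 46.0 and 76.8 ± 42.2 CPM (SD, n = 2). Nodal was 2.27-fold higher in replicate 1 by CPM (2.07 to 2.49), at 107 CPM against 47.0 CPM. Fgf8, a growth factor of the streak, was 2.36-fold higher in replicate 2 (1.45 to 3.95), at 1.73 CPM against 4.08 CPM. With TMM and 0.5 CPM added, these were the only ones at least 2-fold apart among the 12 with at least 10 counts in total, which had a median log2 ratio of -0.43. By plain CPM, Mesp1 (2 and 10 counts, a ratio of 5.27 with an interval of 1.12 to 49.4), Wnt3 (2.01, 1.16 to 3.58) and Wnt3a (2.11, 0.732 to 6.84) were more than 2-fold higher in replicate 2 as well. Kdr, with 9 and 3 counts, was 2.85-fold higher in replicate 1 (0.711 to 16.4).

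The trophoblast list had 10 of 11 genes with a row, and 8 were above the floor in both. Gata3 and Elf5, regulators of trophectoderm and of trophoblast stem cells, were at or under 3 counts in both libraries, as was Cdx2. Tfap2c, which pluripotent cells and germ cells express too, had 105 ± 10.2 CPM (SD, n = 2), and Tead4 had 45.1 and 29.6 CPM. Of 8 genes with at least 10 counts in total, 3 were at least 2-fold higher in replicate 2 and none in replicate 1. Hand1, a factor of trophoblast giant cells and extraembryonic mesoderm, had 4 and 51 counts, a ratio of 13.4 (4.94 to 51.2). Ascl2, a factor of the ectoplacental cone, had 8.78 and 25.5 CPM, and Krt8, an epithelial keratin, 2.56 and 5.46 CPM. Their list had a median log2 ratio of -0.48.

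All 14 genes of the neurectoderm list had a row, and 8 were above the floor in both. Zic2, a zinc finger factor of early neural tissue, had 208 ± 26.9 CPM and Tubb3, a tubulin that also stands on the neuron list, 62.7 ± 26.1 CPM (SD, n = 2), the highest of the list. Totals of at least 10 counts were reached by 9 genes, of which 1 was at least 2-fold apart. This was Zic1, a paralog of Zic2, with 2 counts in replicate 1 and 11 in replicate 2, a ratio of 5.79 with an interval of 1.26 to 53.8. Olig2 had 0 counts in both libraries. The median log2 ratio of the 9 genes was -0.22, and Pax6 lay below it.

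**Figure D4:**
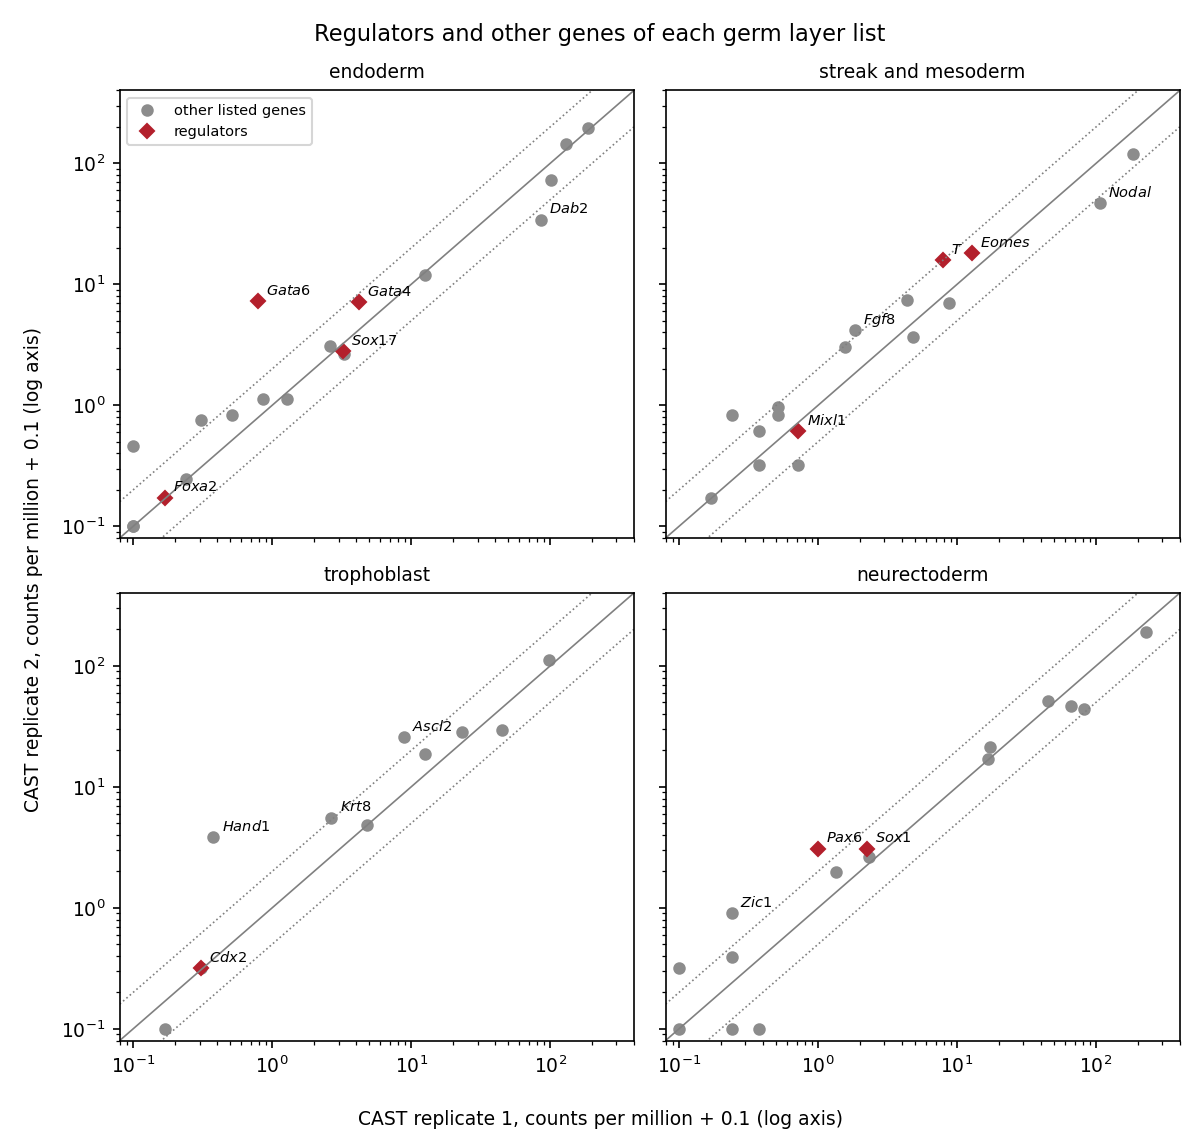
CPM + 0.1 in CAST replicate 1 (horizontal) and replicate 2 (vertical), both on log axes, for the regulators (red diamonds) and the other genes of each list (grey circles). The solid line is equality and dotted lines are 2-fold, and names are given for regulators and for genes called at least 2-fold apart. Gata6 and Hand1 lie farthest above the lines, and Dab2 and Nodal lie below.

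Markers of other cells differed between the libraries too. The fibroblast feeder list summed to 3501 CPM in replicate 1 and 1395 CPM in replicate 2, with 8 of 13 genes of at least 10 counts in total at least 2-fold higher in replicate 1 and none in replicate 2. Col1a1 had 1726 and 777 CPM and Prrx1 had 10.7 and 3.57 CPM, while Dcn had 3.25 and 3.21 CPM, Twist1 had 5.67 and 7.43 CPM, and S100a4 had 0 counts in both. The feeder list was thus lower in the library where 6 of 8 regulators were higher. The pluripotency list summed to 7048 and 5155 CPM, with 4 of 15 genes (Klf4, Klf2, Klf5 and Tbx3, chosen after their values were seen) at least 2-fold higher in replicate 1 and none in replicate 2. By any amount, on TMM library sizes, 11 of the 15 were higher in replicate 1 and 4 in replicate 2, among them Pou5f1 at 547 and 731 CPM and Prdm14 at 120 and 143 CPM. The part of feeder cells or of the state of the culture in the regulators' values was not tested.

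The regulators are on 8 chromosomes and have transcripts of ordinary length. The median GC content of their longest transcripts was 54.6%, beside 50.3% over the 13824 genes. Of all stretches of 75 bases, none in the longest transcripts of Gata4, Gata6, Foxa2, T, Mixl1, Cdx2 and Pax6 occurred in a transcript of another gene. Over the union of its exons Gata6 shares 93 bases with 1010001N08Rik on the opposite strand, which had 0 and 1 counts. In Sox17 23.0% of the stretches did, all shared with Gm37587, a transcript on the opposite strand that has 0 counts in both libraries. In Eomes 1.29% were shared with the antisense gene Gm33460, and in Sox1 0.252% with Gm25239, a miRNA gene inside it. The strand setting of the counting was not given in the sources used here, so the level of Sox17 is uncertain to the extent that reads of this overlap were left out. None were assigned to Gm37587.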

How the data were processed

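Counts of 2 CAST stem cell libraries were used. The authors deposited whole-number read counts per gene, without normalization, listed by Ensembl identifier. By the paper's methods, reads were mapped with STAR to the CAST/EiJ genome and reads with more than 1 locus were discarded, whereas the submitters' processing notes for these libraries name TopHat2 2.1.1, SAMtools and HTSeq with GRCm38 (mm10). Which of these made the counts was not settled. Another 7 columns of per-sample values (C57BL6 stem cells and neurons, CAST neurons, by name) match no sample of the list and were not used.

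CPM used library totals. Ratios used edgeR 4.0.16 (TMM) in R 4.3.3, 0.5 CPM added and at least 10 counts in total (13824 genes). Symbols (26807 of 26808 identifiers), positions and exon lengths came from GENCODE M21 on GRCm38. The exact intervals are Poisson for levels and binomial (Clopper-Pearson) for ratios. The ratio script was tested on simulated data with counting error only. The checks covered genes with more counts than any regulator had, so they do not cover the regulators' depth. DESeq2 1.42.0 size factors were an alternative. The remainder ran in Python 3.11.15 (scipy 1.17.1, numpy 2.4.6, matplotlib 3.10.9, pandas 2.3.3).

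The regulators and lists were chosen with earlier results of these data known. From each of the 4 lineage lists (endoderm, streak and mesoderm, trophoblast, neurectoderm) the 2 highest genes by CPM and up to 3 of those at least 2-fold apart were named, and any gene named beside these was picked with its values in view. No sequences are printed.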

Additional observations from a re-analysis of the deposited data

How the results depend on the processing

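No paired analysis was possible because the libraries used form a single group, CAST, and pairing needs a second group. With 1 library left out, the summed level of the regulators (44.9 CPM) ranged from 32.3 to 57.5 CPM and the number above the floor stayed at 8. Without replicate 1 the level of Gata6 moved from 3.95 to 7.21 CPM and that of Pax6 from 1.94 to 2.99 CPM, and without replicate 2 they were 0.692 and 0.899 CPM and T moved from 11.8 to 7.81 CPM. With a floor of 10 counts, 6 regulators passed in both libraries. With 2 CPM added, 541 genes and 1 regulator (Gata6, at -1.81) were at least 2-fold apart, against 1259 and 3, since a larger addition shrinks the ratios of low genes; Pax6 then had -0.81. With library totals 2 regulators were. The log2 ratio of the regulators' summed CPM on TMM library sizes, with nothing added, was -0.89, and it was -0.83 with library totals and -1.06 (TMM) without Eomes and T. This ratio, the count of regulators 2-fold apart and their alternatives were chosen after seeing the data. All 32 alternative ratios of the 8 regulators kept their sign. This says little of direction, since a changed addition cannot turn a sign and the other scalings moved the ratios little. With the longest transcript as length, Sox17 and Gata6, and Mixl1 and Pax6, exchanged places, and 5 regulators again had the same rank in both libraries. At this depth nothing can be said of differences in Foxa2, Cdx2 and Mixl1.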
